A study of Mus musculus with 2 samples.

Results

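Translation initiation factor genes were followed through the germ cell stages and somatic cells of the mouse testis, with and without the RNA demethylase Alkbh5. The genes were chosen by symbol: every row that starts with Eif1, Eif2, Eif3, Eif4, Eif5 or Eif6, except symbols marked as pseudogenes (-ps) or ending in os. This gave 56 of 36547 genes listed in either library, and 7 symbols were left out. The rule itself uses no measured value. The libraries were made from testis of 12-week-old C57BL/6 mice, 1 library from wild-type (WT) and 1 from Alkbh5-/- knockout (KO) animals. The mice were knocked out in the whole body, and the study's text gives both a single mouse and several mice per genotype, so a library may pool animals. With 1 library per genotype, no test between genotypes was possible and no difference has a replicate check.

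Translation begins when eIF2, charged with GTP, brings the initiator tRNA to the small ribosomal subunit. The factors eIF1 and eIF1A keep that subunit scanning for a start codon, eIF3 is the scaffold on it, and the eIF4 proteins bind the mRNA cap and unwind the leader. Male germ cells are known for storing mRNAs in round spermatids and translating them after transcription has stopped, so initiation is a point of control there. The symbol rule also takes in genes that are not initiation factors in the strict sense: the eIF2 alpha kinases (Eif2ak1 to Eif2ak4), the exon junction helicase Eif4a3, the elongation factors Eif5a and Eif5a2, the ribosome biogenesis factor Eif6, and Eif2c5, an Argonaute-like symbol annotated as a lincRNA.

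The deposited values are counts of unique molecular identifiers (UMIs), 1 per captured RNA molecule, for each gene and cell barcode. The WT library held 5756 barcodes and 80283221 UMIs, and the KO library 7012 barcodes and 82056760 UMIs. Alkbh5, the targeted gene, was read 607 times in WT and 5 times in KO. The libraries shared 45 barcodes, where 45.6 would be shared by independent draws. Clusters were named from marker genes, so each class is called after the cells it resembles. WT and KO held, in this order, 190 and 1064 spermatogonia-like, 35 and 121 early spermatocyte-like, 705 and 661 late spermatocyte-like, 837 and 799 early-stage, 1086 and 995 mid-stage and 330 and 317 late-stage round spermatid-like, and 2404 and 1311 sperm-like cells. The somatic classes were Leydig-like (94 and 1171 cells), Sertoli-like (48 and 468), macrophage-like (26 and 81) and endothelial-like (1 and 24). The spermatogonia-like cluster also had 13 of 18 early spermatocyte markers. Levels are UMIs per 1000000 UMIs of a class (CPM), with exact Poisson 95% intervals. All intervals cover counting error only.

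The summed share of the initiation factor genes was highest at the start of spermatogenesis and was high again in the last class. In WT they made up 1.28% of all UMIs in spermatogonia-like cells, 1.23% in early and 0.991% in late spermatocyte-like cells, 0.742% in early-stage and 0.719% in mid-stage round spermatid-like cells, 0.918% in late-stage round spermatid-like cells and 1.10% in sperm-like cells. The KO shares were 1.43%, 1.31%, 1.06%, 0.766%, 0.728%, 0.903% and 0.970% in the same order. The high share in sperm-like cells was carried by Eif1, Eif4e and Eif4h. These 3 genes summed to 2267 CPM in WT spermatogonia-like cells and 8359 in WT sperm-like cells, of 11011 CPM for all members. The other 53 members summed to 10540 CPM in the first class and to 2653 in the last, and in KO to 12379 and 2748.

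The class with the highest level was read for members with at least 100 UMIs in the germ cells of a library, which 50 of 56 had in WT. Of these, 20 peaked in spermatogonia-like cells, 13 in the early and 11 in the late spermatocyte-like class. The other 6 were highest after meiosis: Eif4g3 in early-stage, Eif4g1 in mid-stage and Eif4e3 in late-stage round spermatid-like cells, and Eif1, Eif4e and Eif4h in sperm-like cells. Members highest in the first pair of classes were thus 33 of 50, or 66.0%, beside 34.6% of the 14162 genes that could be read in WT. Those highest in a spermatid or sperm class were 12.0%, beside 42.9% of all genes. In KO, 39 of 51 members (76.5%) were highest there, beside 39.9% of 15234 genes. For comparison, 79 of 83 ribosomal protein genes and 23 of 37 other translation factor genes were highest there in WT. The highest class was the same in both libraries for 39 of 50 members (78.0%), as for 80.0% of all genes. The highest level stood clear of the next, with intervals that did not overlap, in 23 of 50 members in WT and in 39 of 51 in KO, where the early classes held more cells.

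**Figure D1:**
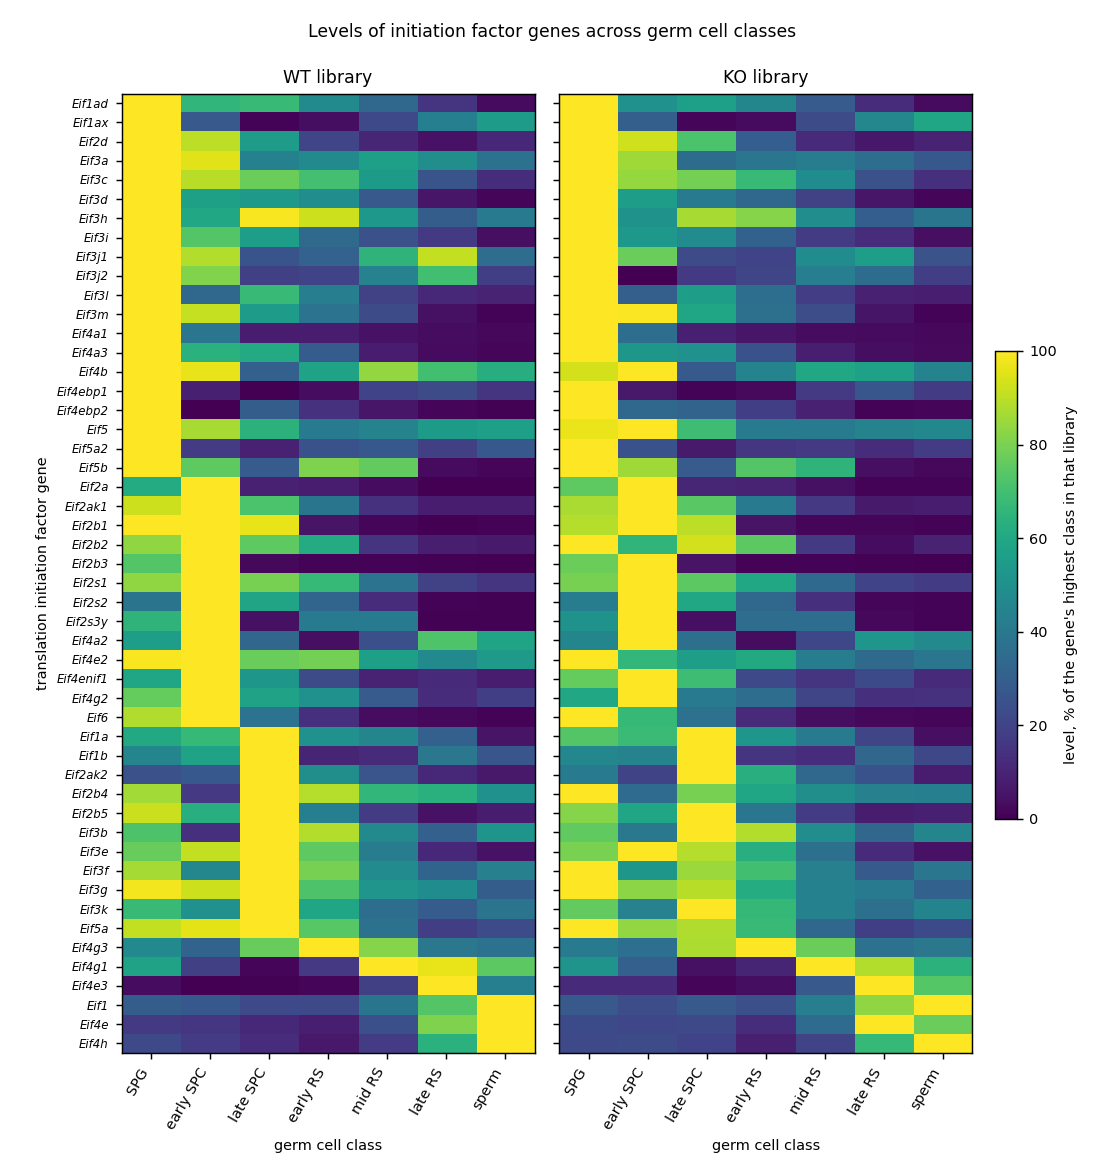
Level of each initiation factor gene with at least 100 germ cell UMIs in WT (rows) in 7 germ cell classes (columns), as a percentage of that gene's highest class in the same library; SPG, spermatogonia-like; SPC, spermatocyte-like; RS, round spermatid-like. Genes are ordered by their highest WT class: 33 of the 50 are brightest in the first 2 columns, and Eif1, Eif4e and Eif4h in the last WT column.

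Among the scanning factors, Eif1, which guards the choice of start codon, stood at 1906 CPM (1841 to 1972) in WT spermatogonia-like cells and 1768 in early spermatocyte-like cells. Its level was 1417 in late spermatocyte-like, 1429 in early-stage, 2508 in mid-stage and 4724 in late-stage round spermatid-like cells, and 6434 in sperm-like cells. Its near copy Eif1b had 687 CPM in WT late spermatocyte-like cells and 72.4 in early-stage round spermatid-like cells, a step over which Eif1 was at 1417 and 1429 CPM. Eif1b is on chromosome 9 from 120492232 to 120495330 (GRCm38), where an antisense gene, D830035M03Rik, overlaps it. Eif1 held 67.3% (66.8 to 67.9) of the UMIs of the pair in WT late spermatocyte-like cells, its lowest share, and 95.2% (94.9 to 95.5) in early-stage round spermatid-like cells. The KO shares were 69.2% and 92.8%.

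The X and Y chromosomes are known to be silenced during male meiosis. Eif1ax, the X-linked gene of eIF1A, and Eif1a, its autosomal counterpart, changed places during meiosis. Eif1ax had 319, 88.9, 2.78, 11.7, 70.7, 138 and 175 CPM in the 7 WT classes from spermatogonia-like to sperm-like cells. Eif1a was at 74.3 CPM in the first class, 122 in late spermatocyte-like cells and 6.25 in the last. Eif1a therefore held 18.9% of the pair in WT spermatogonia-like cells, 97.8% (96.9 to 98.4) in late spermatocyte-like cells and 3.45% (2.94 to 4.02) in sperm-like cells. The KO shares were 20.1%, 96.3% and 2.32%, so the exchange was seen in both libraries.

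The eIF2 subunit genes Eif2s1, Eif2s2 and Eif2s3y were highest in the early spermatocyte-like class, which held 35 WT cells. For Eif2s1 the WT interval there overlapped that of spermatogonia-like cells. Eif2s2, the beta subunit that docks eIF5, had 789, 2049 (1885 to 2223), 1193, 665, 263, 17.0 and 14.8 CPM in the 7 WT classes in order. Eif2s1, the alpha subunit that the stress kinases phosphorylate, had a shallower course, from 285 CPM in the early spermatocyte-like class to 42.3 in the sperm-like class. The gamma subunit, which carries GTP and the tRNA, was read mainly from the Y-linked Eif2s3y, at 146, 224, 9.63, 93.6, 91.8, 1.34 and 1.34 CPM in the 7 WT classes in order. Its dip in late spermatocyte-like cells was also seen in KO (14.1 CPM, beside 330 and 118 in the classes before and after). Eif2s3x, its X-linked and nearly identical partner, had 50 UMIs in the whole WT library and 205 in KO. How reads were divided within this pair is not known, so its values are uncertain.

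eIF2B, which recharges eIF2 with GTP, showed a split between its subunits. Eif2b3 was at 170 CPM in WT spermatogonia-like and 231 (178 to 295) in early spermatocyte-like cells, and at 4.82, 2.36, 2.17, 1.53 and 0.157 in the 5 later classes. Eif2b1 held its level one stage longer, with 88.9, 88.9 and 86.1 CPM in the first classes and 4.64 in early-stage round spermatid-like cells. Eif2b4, which overlaps Snx17 on the other strand, was still at 32.5 CPM in sperm-like cells, beside 63.9 in late spermatocyte-like cells. KO levels of Eif2b3 were 197, 255 and 13.1 CPM in the first classes and 0.738 in sperm-like cells. Subunits of 1 complex thus lost their mRNA at different stages in both libraries.

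The 4 eIF2 alpha kinases had few UMIs. Of the germ cell classes, Eif2ak2, the kinase activated by double-stranded RNA, was highest in late spermatocyte-like cells in WT (25.9 CPM) and KO (16.9). Eif2ak1, known as the haem-regulated kinase, was at 26.3 CPM in WT spermatogonia-like and 2.12 in sperm-like cells. Eif2ak3 and Eif2ak4, which respond to endoplasmic reticulum stress and amino acid shortage, had 21 and 47 UMIs in the whole WT library. With Leydig-like, Sertoli-like and macrophage-like cells included, Eif2ak1, Eif2ak2 and Eif2ak4 were highest in Sertoli-like cells in KO.

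All 14 eIF3 genes were lower in WT sperm-like than in WT spermatogonia-like cells, but by very different amounts. Eif3m had 343 CPM in spermatogonia-like and 2.99 in sperm-like cells, and Eif3d, a subunit that can bind the cap, 370 and 4.37. Eif3h had 303 and 125 CPM, Eif3k 439 and 249, and Eif3a, the core subunit, 242 and 90.0. The sum of the eIF3 genes was 3807 CPM in WT spermatogonia-like cells and 871 in WT sperm-like cells, and 4588 and 957 in KO. Eif3j1 had 2 high points in WT, 125 CPM in spermatogonia-like and 113 in late-stage round spermatid-like cells, with 32.2 in late spermatocyte-like cells between them. Eif3j2, a short gene related to Eif3j1, had 221 WT and 167 KO UMIs, and reads may have been divided between them.

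Among the eIF4 genes, the scaffold eIF4G differed between stages in the share of its paralogs. Eif4g1 was at 108, 35.6, 3.61 (2.66 to 4.79), 30.8, 187, 181 and 140 CPM in the 7 WT classes, so its lowest level was in late spermatocyte-like cells. Eif4g3, which overlaps the antisense gene 1700095J12Rik, was high where Eif4g1 was lowest, with 93.9 CPM in the late spermatocyte-like class and 123 in the early-stage round spermatid-like class. Eif4g1 held 64.8% (58.9 to 70.3) of the pair in WT spermatogonia-like cells, 3.70% (2.74 to 4.88) in late spermatocyte-like cells, 20.1% in early-stage, 65.1% in mid-stage and 78.8% in late-stage round spermatid-like cells. The KO share was 7.53% (6.10 to 9.18) in the late spermatocyte-like class and 78.8% in late-stage round spermatid-like cells. Eif4g2, a relative without the cap-binding partner site, followed neither: its WT level was 456 CPM in the first class, 598 in the second and 110 in the last.

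The helicase eIF4A also changed its main source. Eif4a1 was at 524, 206, 43.0, 40.7, 26.4, 16.4 and 10.3 CPM in the 7 WT classes in order. Eif4a2, which overlaps Rfc4 on the other strand, was at 129, 231, 76.5, 9.67, 56.5, 167 and 135 CPM. Eif4a1 held 80.2% (77.8 to 82.5) of the pair in spermatogonia-like, 36.0% in late spermatocyte-like, 80.8% (77.5 to 83.8) in early-stage round spermatid-like and 7.10% (6.30 to 7.98) in sperm-like cells. The early-stage class was the only one of the 3 spermatid classes in which Eif4a1 held most of the UMIs of the pair, and the KO share there was 82.7%. Eif4a3, of the exon junction complex, was at 284 CPM in WT spermatogonia-like and 4.37 in sperm-like cells.

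**Figure D2:**
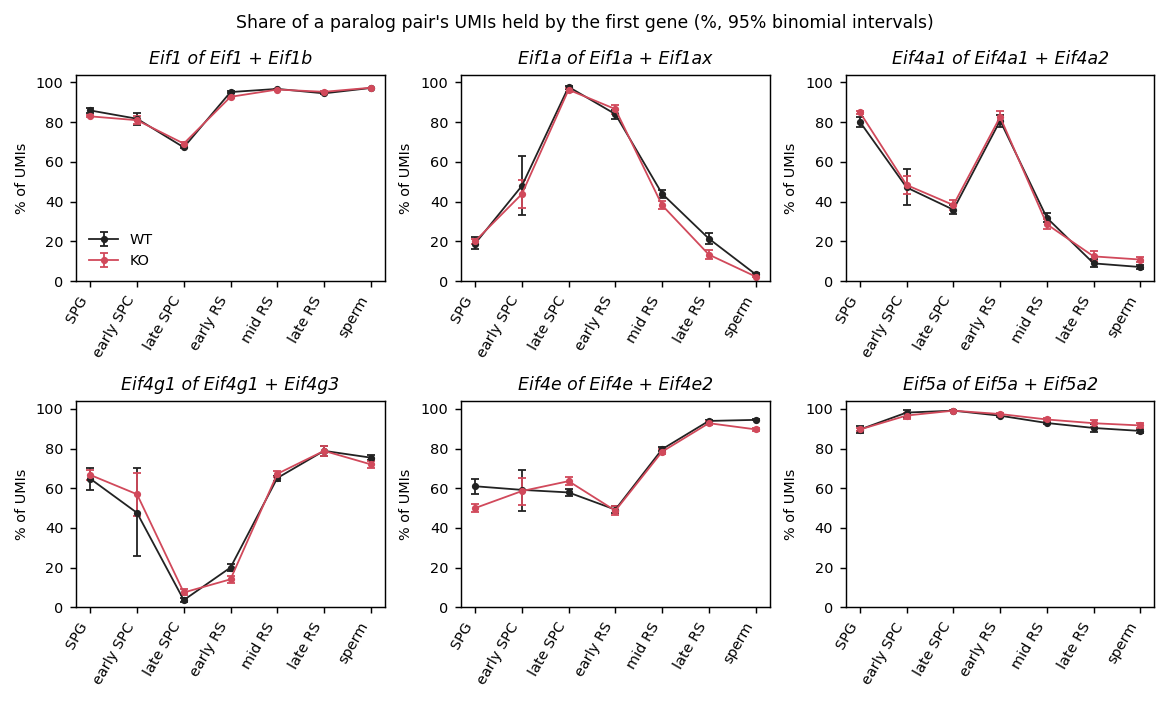
Percentage of a paralog pair's UMIs that came from the first gene (vertical axis) in 7 germ cell classes (horizontal axis), in WT (black) and KO (red), with exact 95% binomial intervals. Eif1a rises to 97.8% of its pair in WT late spermatocyte-like cells, where Eif4g1 is at 3.70% of its pair, and the KO points lie close to the WT points.

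Eif4ebp1, the repressor that mTOR releases from eIF4E, was at 165, 14.2, 0.376, 5.51, 33.3, 37.5 and 24.6 CPM in the 7 WT classes in order. Its relative Eif4ebp2 had 38.6 CPM in WT spermatogonia-like cells and 0.275 in sperm-like cells. Eif4ebp3 and Eif4e1b, a form of eIF4E known from oocytes, were near 0, with 1 and 3 UMIs in the WT library and 7 and 4 in KO. Eif5b, which joins the ribosomal subunits, kept 352 CPM in early-stage and 332 in mid-stage round spermatid-like cells in WT and had 13.6 in the late-stage class. Eif5a, the factor that carries hypusine, held 99.1% of the UMIs of its pair with Eif5a2 in the WT late spermatocyte-like class and 88.8% in the sperm-like class.

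The cap-binding protein gene Eif4e, the helicase cofactor gene Eif4h and Eif1 formed the late group. Eif4e (chromosome 3 from 138526179 to 138559696, plus strand) was at 221, 206, 151, 109, 314, 1040 and 1292 (1278 to 1306) CPM in the 7 WT classes in order. Eif4h (chromosome 5 from 134619721 to 134639490, minus strand) was at 140, 114, 81.2, 43.9, 112, 405 and 634 CPM. Both were lowest in early-stage round spermatid-like cells and higher in each class after it. Eif4e3, another cap-binding gene, was at 18.5 CPM in late-stage round spermatid-like cells and 7.98 in sperm-like cells in WT, and at most 3.54 in the other germ cell classes. Sperm markers were also read before these stages: their sum was 32929 CPM in WT spermatogonia-like cells, beside 294122 in WT sperm-like cells. Their part in the early level of the late group was not tested.

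**Figure D3:**
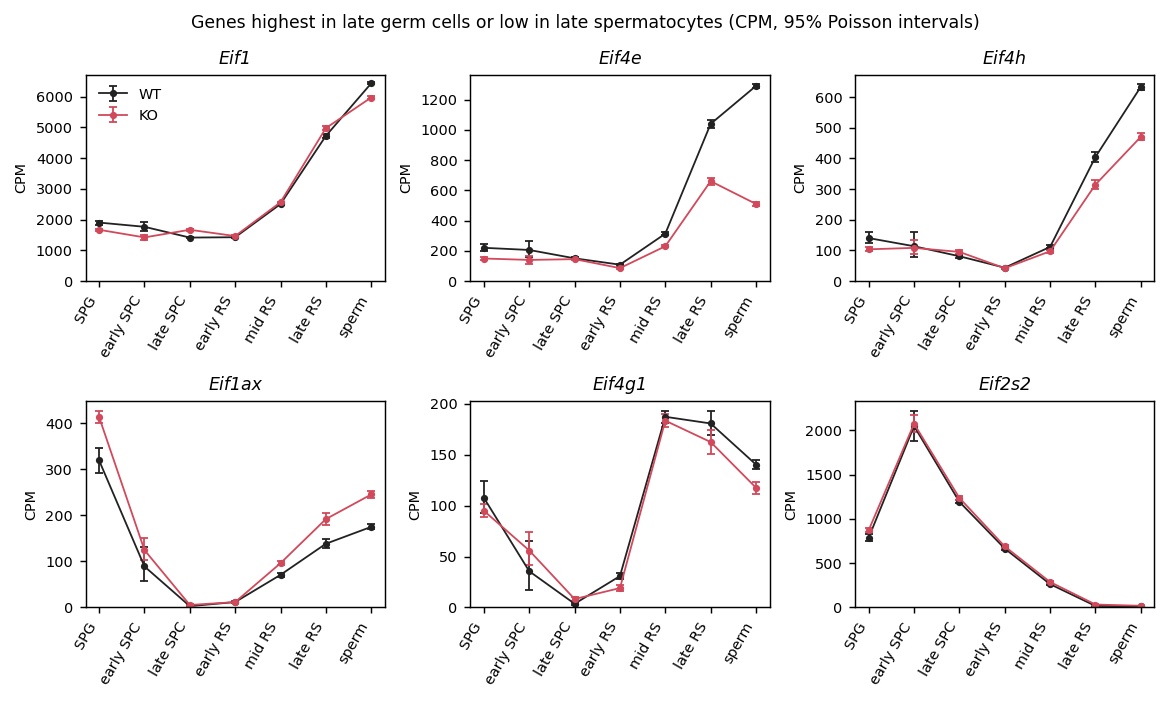
Levels in CPM (vertical axis, from 0) of 6 genes in 7 germ cell classes (horizontal axis) in WT (black) and KO (red), with exact 95% Poisson intervals. Eif1, Eif4e and Eif4h are highest at the right in WT, and the KO line of Eif4e ends at 511 CPM where the WT line ends at 1292.

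The promoters of the late group are shown because these genes are high in the same stages. They are RefSeq promoters on GRCm38.p6, printed 5′ to 3′ on the strand of the gene and ending before the annotated gene. Capitals mark a GC box (GGGCGG, or CCGCCC on the other strand), a CCAAT box (CCAAT, or ATTGG) or an E-box (CACGTG). The windows are chr11:100319699-100319884 for Eif1, chr3:138525941-138526178 for Eif4e and chr5:134639491-134639659 for Eif4h.
Eif1: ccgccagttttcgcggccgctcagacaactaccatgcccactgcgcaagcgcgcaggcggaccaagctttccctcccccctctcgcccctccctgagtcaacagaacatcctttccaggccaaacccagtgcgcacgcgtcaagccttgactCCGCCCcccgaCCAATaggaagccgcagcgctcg
Eif4e: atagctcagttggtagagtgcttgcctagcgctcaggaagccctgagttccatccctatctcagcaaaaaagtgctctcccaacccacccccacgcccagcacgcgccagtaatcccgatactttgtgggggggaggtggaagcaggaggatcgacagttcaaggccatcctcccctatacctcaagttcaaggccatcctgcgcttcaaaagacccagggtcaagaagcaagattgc
Eif4h: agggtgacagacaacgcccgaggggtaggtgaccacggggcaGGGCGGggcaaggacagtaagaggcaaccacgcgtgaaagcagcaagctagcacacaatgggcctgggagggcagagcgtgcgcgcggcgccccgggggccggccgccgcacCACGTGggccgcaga
A second RefSeq start of Eif4e lies inside the annotated gene and is not shown. Over whole windows of 300 bases, with all starts of a gene counted, an E-box was present in Eif4e and Eif4h, in 10 of the 44 members with a promoter entry and in 8.09% of 27025 genes. A GC box was present in Eif1 and Eif4h, in 33 of 44 members and in 38.2% of all genes. A CCAAT box was present in Eif1 and Eif4e and in 41.1% of all genes. The cAMP response element TGACGTCA was in none of the 44 members and in 2.03% of all genes, and TATAAA was in 4 members and 15.7% of all genes. Of the motifs searched, none was held by all 3 late genes. For Eif4e the matches lie outside the stretch printed.

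Between the genotypes, most initiation factor genes differed little within a stage. A gene was compared in a class when at least 25 UMIs were expected in the smaller library, and a difference was counted from 1.5-fold. In spermatogonia-like cells 47 members were compared: 1 was higher in KO (beside 6.63% of all genes compared) and 0 were lower (beside 12.9%). The median log2 ratio of KO over WT was 0.23, and 39 of 47 were above 0 (83.0%). Over all genes the median was 0.05 and 55.3% were above 0, and over the ribosomal protein genes 0.20 and 81.5%. In early spermatocyte-like cells, 32 were compared and 0 passed in either direction (beside 6.77% higher and 7.11% lower). In late spermatocyte-like cells, 3 of 47 were higher (beside 9.78%) and 1 lower (beside 6.41%). The medians of the members in these 2 classes were 0.19 and 0.14, beside 0.02 and 0.04 over all genes.

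In early-stage round spermatid-like cells, 1 of 48 members was higher in KO (beside 8.38% of all genes) and 1 lower (beside 6.90%). In the mid-stage class, 3 of 51 were higher (beside 14.5%) and 1 lower (beside 6.61%). In the late-stage class, 6 of 38 were higher (beside 13.6%) and 1 lower (beside 7.15%). In sperm-like cells, 5 of 42 were higher (beside 22.0%) and 1 lower (beside 6.30%). The medians of members and of all genes lay within 0.05 of each other in each of these 4 classes. In all 7 germ cell classes the share of members counted was below that of all genes in both directions, except for the 6 higher members of the late-stage class.

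**Figure D4:**
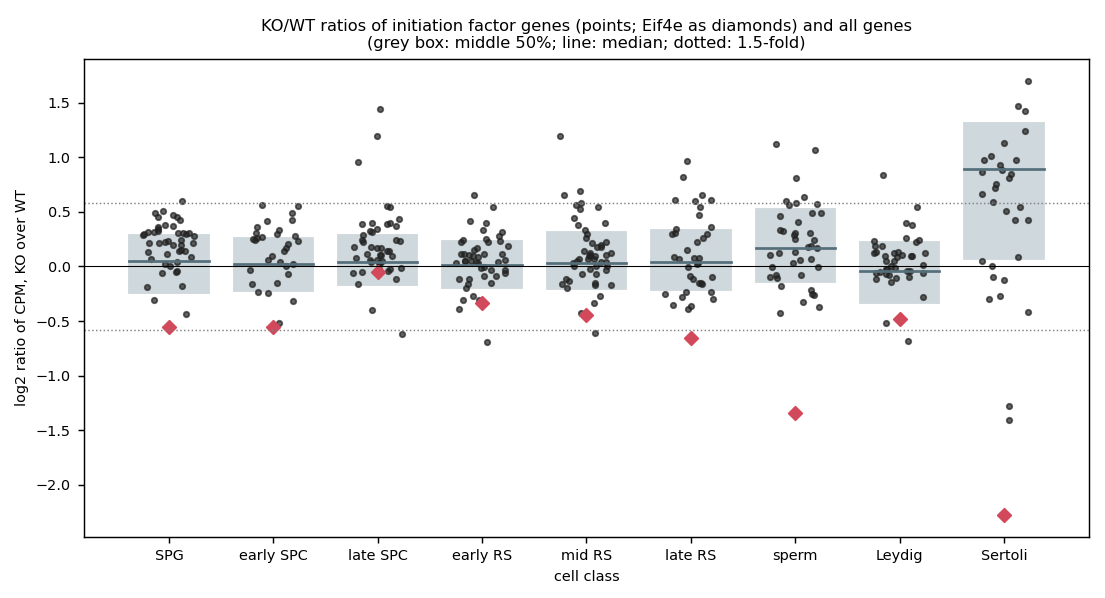
log2 ratio of CPM in KO over WT (vertical axis) for each initiation factor gene compared in a class (points; Eif4e as red diamonds), with the median and the middle 50% of all genes compared (line and grey box) and 1.5-fold marked by dotted lines. Eif4e lies at -1.34 in sperm-like and -0.65 in late-stage round spermatid-like cells, while most points stay inside the dotted lines outside the Sertoli-like class.

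Eif4e was the member that stood lowest in KO in late germ cells. In sperm-like cells it had 32836 UMIs, or 1292 CPM (1278 to 1306), in WT and 6918 UMIs, or 511 CPM (499 to 523), in KO, a log2 ratio of -1.34 (-1.38 to -1.30). In late-stage round spermatid-like cells the levels were 1040 and 661 CPM, a log2 ratio of -0.65 (-0.72 to -0.59). The ratio was -0.44 in mid-stage and -0.34 in early-stage round spermatid-like cells, but both moved when clusters were drawn anew. With over 1000 genes per cell, clustered again, they were -0.22 and -0.88. The early-stage clusters then held 729 and 338 WT cells, beside 491 and 346 in the main setting. In late spermatocyte-like cells the levels were 151 and 146 CPM, and the intervals of both clusters of that class spanned 0 (-0.08 and -0.03). The order of the stages changed with this difference: Eif4e was highest in sperm-like cells in WT and in late-stage round spermatid-like cells in KO.

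The Eif4e difference was present in each of the 4 sperm-like clusters, with log2 ratios of -1.39, -1.48 and -1.33 in 3 of them and levels of 1079 and 541 CPM in the other. Per cell, the median Eif4e level in sperm-like cells was 1228 CPM in WT (quartiles 926 and 1599) and 473 in KO (295 and 688), at median depths of 8921.5 and 8377 UMIs per cell. The upper KO quartile lay below the lower WT quartile. An Eif4e UMI was found in 99.8% of WT and 95.4% of KO sperm-like cells, so the difference was in the number of UMIs per cell. The sum of the sperm markers in the same cells was 294122 CPM in WT and 262620 in KO. Within the mid-stage class the clusters differed, with ratios of -1.24 and -0.30. The first of them held 98 barcodes called doublets among 618 WT cells and 59 among 521 KO cells, and its sperm markers were at 41670 CPM in WT and 27255 in KO. Without barcodes called doublets the mid-stage ratio was -0.23.

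**Figure D5:**
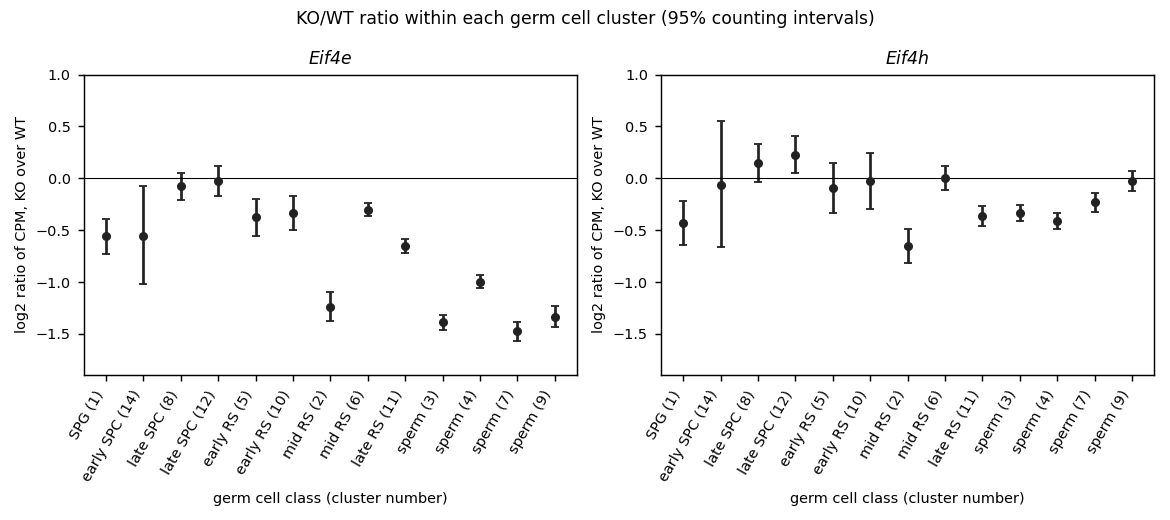
log2 ratio of CPM in KO over WT (vertical axis) of Eif4e and Eif4h within each germ cell cluster (horizontal axis, class with cluster number), with 95% counting intervals. For Eif4e all 4 sperm-like clusters lie well below the late spermatocyte-like clusters, with the lowest at -1.48, and those lie near 0, while Eif4h lies between -0.41 and -0.03 in the sperm-like clusters.

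Outside the late germ cells, Eif4e was also lower in KO in spermatogonia-like cells (221 and 150 CPM, log2 -0.56, -0.73 to -0.39), Leydig-like cells (115 and 82.0 CPM, log2 -0.48, -0.76 to -0.19), macrophage-like cells (525 and 150 CPM, log2 -1.81, -2.16 to -1.47) and Sertoli-like cells (767 and 159 CPM, log2 -2.27, -2.46 to -2.09). In early spermatocyte-like cells Eif4e was at 206 and 140 CPM (log2 -0.55, -1.02 to -0.08). Median Eif4e levels per cell in WT and KO were 122 and 121 CPM in spermatogonia-like and 155 and 117 in early spermatocyte-like cells. In Leydig-like cells they were 79.8 and 0, and in Sertoli-like cells 828 and 111. Sperm markers were also lower in KO in these classes. Their sums in WT and KO were 32929 and 17112 CPM in spermatogonia-like and 11867 and 7024 in early spermatocyte-like cells. They were 15903 and 12367 in Leydig-like, 85053 and 50383 in macrophage-like and 160425 and 34060 in Sertoli-like cells. Their part in these differences was not tested.

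The other genes of the cap-binding group differed less. Eif4h was at 634 CPM in WT and 471 in KO sperm-like cells, a log2 ratio of -0.43 (-0.47 to -0.39), short of 1.5-fold, and its 4 cluster ratios were -0.33, -0.41, -0.23 and -0.03. Eif4e2, a cap-binding relative linked to repression of translation, had ratios of -0.37, -0.39 and -0.40 in the sperm-like, late-stage round spermatid-like and late spermatocyte-like classes. Eif4e3 lay the other way in sperm-like cells, with 7.98 CPM in WT and 14.0 in KO (log2 0.81, 0.52 to 1.11, and 0.55 with equal weight per cluster). Eif1 had 6434 and 5973 CPM in sperm-like cells. The sum of the eIF4 cap-binding and helicase genes was 2483 CPM in WT and 1519 in KO sperm-like cells, a log2 ratio of -0.71 (-0.73 to -0.69), and Eif4e carried most of it. Without Eif4e the sum was 1192 and 1008 CPM, a log2 ratio of -0.24 (-0.27 to -0.21).

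Members counted as higher in KO were mostly at low levels in the class concerned, and part of them were lost under another setting. Leydig and Sertoli markers were also higher in KO in each germ cell class. The Leydig markers summed to 9.63 CPM in WT and 253 in KO late spermatocyte-like cells, and to 30.3 and 179 in sperm-like cells. The part of such somatic RNA in the differences below was not tested. Of 27 differences past 1.5-fold whose alternatives were computed, 12 fell short of it under at least 1 alternative. The members higher in late spermatocyte-like cells were Eif2b3 (4.82 and 13.1 CPM, log2 1.44), Eif4g1 (3.61 and 8.24, log2 1.19) and Eif1ax (37 and 59 UMIs, log2 0.96). Eif4g1 and Eif1ax had their lowest WT germ cell level in this class. Without integration of the libraries Eif4g1 was at 0.57 and Eif1ax at 0.33, both short of 1.5-fold, while Eif2b3 was at 1.36. Eif2ak2 was the lower one there, with 25.9 and 16.9 CPM (log2 -0.62, -0.89 to -0.36), and it was at -0.51 without integration. In early-stage round spermatid-like cells, Eif1b was higher (72.4 and 114 CPM, log2 0.66, 0.53 to 0.78) and Eif4g1 lower (30.8 and 19.1, log2 -0.69). Neither held with over 1000 genes per cell, where Eif1b was at 0.42 and Eif4g1 at -0.44. In the mid-stage class Eif2s3x (21 and 40 UMIs), Eif6 and Eif4enif1, a carrier of eIF4E into the nucleus, were higher and Eif3j2 lower (77 and 42 UMIs). Without doublets the mid-stage Eif6 ratio was 0.48, short of 1.5-fold. Eif6 was also the member called in spermatogonia-like cells, with 122 and 186 CPM (log2 0.60, 0.39 to 0.82), but under 5 of 7 alternatives it was at 0.50 to 0.58. Equal weight per cluster, which is among the 7, cannot change a class of 1 cluster such as this.

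In late-stage round spermatid-like cells the 6 higher members were Eif2s2 (17.0 and 33.1 CPM, log2 0.96, 0.58 to 1.35), Eif4enif1, Eif4a3, Eif3m, Eif5b and Eif4g2. Eif4enif1 was at 0.28 at the finer clustering, and with equal weight per cell Eif4enif1 and Eif4a3 were at 0.46 and 0.47. In sperm-like cells the 5 were Eif4a3 (4.37 and 9.52 CPM, log2 1.12), Eif2s3y (34 and 38 UMIs), Eif4e3, Eif3m and Eif4a1. Each of these was higher in an earlier stage than in the class where it was counted. For Eif4e3 that stage was the late-stage round spermatid-like class, at 18.5 CPM in WT and 19.0 in KO. Mitochondrially encoded genes were at 0.366% of UMIs in WT and 0.565% in KO sperm-like cells.

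In Leydig-like cells, 1 of 42 members was higher in KO (beside 8.14% of all genes) and 1 lower (beside 15.5%). Eif1b was the higher one (47.2 and 84.1 CPM, log2 0.83, 0.42 to 1.28) and Eif4g3 the lower (47.2 and 29.4, log2 -0.68), each from 49 WT UMIs. With equal weight per cell both fell short of 1.5-fold, at 0.48 and -0.47. Eif4e3 was at 34.7 CPM in WT and 50.5 in KO Leydig-like cells, above every germ cell class of its library. In Sertoli-like cells 17 of 32 members were higher in KO (beside 63.5% of all genes) and 3 lower (beside 17.6%): Eif1, Eif4e and Eif4h, the late germ cell group. The WT Sertoli-like cells were 48, with sperm markers at 160425 CPM and Sertoli markers at 14719, beside 34060 and 30994 in KO, so ratios in this class cannot be told apart from the makeup of the RNA. The members' median there was 0.63 and that of all genes 0.89. The members with the largest ratios were Eif4a3 (28.2 and 91.8 CPM, log2 1.70), Eif4a1 (167 and 464, log2 1.47) and Eif1a (60.8 and 163, log2 1.42).

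A list of 43 other translation factor genes was read in the same way. In spermatogonia-like cells 3 of 36 were higher in KO and 2 lower, and in sperm-like cells 7 of 28 were higher and 1 lower, beside the same shares of all genes as for the members. The lower one in sperm-like cells was Larp1, which binds the 5′ ends of mRNAs for ribosomal proteins, with 162 and 93.7 CPM (log2 -0.79, -0.88 to -0.70). Abce1, which recycles ribosomes, was among the higher ones there, with 27.3 and 54.3 CPM (log2 0.99, 0.84 to 1.14), as was Ddx3y, a Y-linked helicase (2.52 and 12.4 CPM). In Leydig-like cells 4 of 27 were higher (beside 8.14% of all genes) and 2 lower (beside 15.5%). The higher ones were Ddx3x (55.9 and 130 CPM, log2 1.22), Ppp1r15a, a phosphatase subunit (60.7 and 99.4, log2 0.71), and the transcription factor genes Atf4 (70.4 and 109, log2 0.64) and Ddit3 (23.1 and 44.6, log2 0.95). Pabpc1 and Pabpc2 were the lower ones, with log2 ratios of -0.71 and -1.33, beside sperm markers at 15903 and 12367 CPM.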

How the data were processed

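Single cells of testis were captured on microfluidic chips with the GEXSCOPE kit and sequenced in 1 library per genotype. The deposited values are UMI counts per gene and cell barcode, made by the authors with fastp (trimming), featureCounts 1.6.2 (gene counts) and, per the submitters' processing notes, STAR 2.5.3a. The methods name GRCh38 with Ensembl 92, although the gene symbols are those of mouse. Whether counting used the strand is not given in the sources used here, and 13 members overlap a gene with at least 100 UMIs on the other strand. They are Eif1ad, Eif1b, Eif2a, Eif2ak1, Eif2ak2, Eif2b4, Eif2s2, Eif3j1, Eif3m, Eif4a2, Eif4enif1, Eif4g3 and Eif5b.

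The members and the lists were chosen with earlier results of these data known. All barcodes had over 500 genes and were kept. The libraries were integrated and clustered with Seurat 5.3.0 in R 4.3.3 (2000 variable features, 20 anchor dimensions, 30 principal components, resolution 0.3), and clusters were named by their leading genes and a list of markers (at least 3 detected). Scrublet in scanpy 1.11.5 called 243 WT and 348 KO barcodes doublets, which were kept. UMIs were summed per class and library (Python 3.11.15, scipy 1.17.1), and ratios were given exact conditional binomial 95% intervals, which cover counting error only. A gene was compared with at least 25 expected UMIs in the smaller library. The calculation was tested on simulated data. With 1 library per genotype no significance test was run.

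Values were given for the paralog pairs, the 3 members with the largest and the 3 with the smallest ratio in each class, the 5 with the widest range in WT, those highest after meiosis, and Alkbh5. Other named members, such as Eif3d, Eif3h, Eif3k, Eif5b and the kinases, were chosen after their values were seen. Gene positions are from GENCODE vM21 on GRCm38 and promoters from RefSeq on GRCm38.p6, which held 44 of the 56 members. Alternatives changed the resolution, integration, cell filter, doublets, totals, weighting, count minimum and fold.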

Additional observations from a re-analysis of the deposited data

Results flagged for a closer look

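The 7 symbols left out as pseudogenes had UMIs too, so they are data outside the values used above. Eif3s6-ps1 had 146 WT and 147 KO UMIs. Eif4a-ps4 had 90 and 221. Eif1-ps1 had 31 and 22, Eif5al3-ps 13 and 11, Eif1-ps2 7 and 5, Eif3s6-ps2 5 and 2, and Eif3s6-ps4 2 and 7. There were no control samples for these symbols. The parent gene Eif1 had 282957 WT and 220405 KO UMIs.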

How the results depend on the processing

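The number of members highest in spermatogonia-like or early spermatocyte-like cells stayed within 1.5 times of its value under each alternative run, in both libraries. In KO a rise past 1.5 times was out of reach, given the number of members, so only a fall could have shown there. The main values were 33 in WT and 39 in KO, beside 34 and 39 at resolution 0.8 and 36 and 38 without integration. The Eif4e ratio in sperm-like cells lay between -1.35 and -1.28 and that in late-stage round spermatid-like cells between -0.70 and -0.64. The Eif4e ratio in mid-stage round spermatid-like cells was less steady, at -0.79 without integration, -0.32 at resolution 0.8, -0.23 without doublets and -0.22 with over 1000 genes per cell. In early-stage round spermatid-like cells it was at -0.34, and at -0.88 with over 1000 genes per cell, where 1.5-fold was passed. Of 27 differences of named members short of 1.5-fold, 8 passed it under at least 1 alternative. Each ratio of a named member was counted once per alternative. Of these values, 354 stayed within the counting interval of the main ratio, 23 left it and 1 reversed. The reversed one was Eif1 in early spermatocyte-like cells, at -0.31 and at 0.0071 without integration. Among the 354 are classes of 1 cluster under equal weight per cluster, where no change was possible.

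Counts of members higher and lower were small, and some of them moved with most settings. Of all counts under the alternatives, with those of the highest class, 147 were equal to or within 1.5 times of the main value. The other 65 moved further. With a size criterion after FindMarkers (a UMI in 25% of cells, as in the methods, and a natural log difference of 0.25, which was chosen here), members higher numbered 0 in spermatogonia-like, late spermatocyte-like, Leydig-like and sperm-like cells and in all 3 round spermatid-like classes, and 1 in early spermatocyte-like cells. Members lower numbered 0 in late spermatocyte-like, early-stage and mid-stage round spermatid-like and Leydig-like cells. With a minimum of 10 expected UMIs, members higher were 2 in the early spermatocyte-like class, 2 in Leydig-like and 28 in Sertoli-like cells, and members lower 1 in early and 2 in late spermatocyte-like cells and 3 in late-stage round spermatid-like cells. With a minimum of 100, members higher were 0 in late spermatocyte-like, mid-stage round spermatid-like and Leydig-like cells, 2 in late-stage round spermatid-like, 2 in sperm-like and 3 in Sertoli-like cells, and members lower 0 in mid-stage round spermatid-like and Leydig-like cells and 1 in Sertoli-like cells. With equal weight per cell, members higher were 0 in spermatogonia-like and Leydig-like cells and 3 in late-stage round spermatid-like cells, and members lower 0 in late spermatocyte-like and early-stage round spermatid-like cells. At 2-fold, members higher were 0 in spermatogonia-like, early-stage and late-stage round spermatid-like and Leydig-like cells, 1 in mid-stage round spermatid-like, 2 in sperm-like and 6 in Sertoli-like cells, and members lower 0 in late spermatocyte-like, Leydig-like and all 3 round spermatid-like classes. Without integration, members higher were 0 in spermatogonia-like, 1 in late spermatocyte-like, 11 in late-stage round spermatid-like and 11 in sperm-like cells, and members lower 0 in Leydig-like, late spermatocyte-like and early-stage round spermatid-like cells, 2 in mid-stage and 2 in late-stage round spermatid-like cells. In that setting the mid-stage round spermatid-like clusters split by library, with 1069 WT and 72 KO cells against 4 WT and 793 KO cells. With over 1000 genes per cell, members higher were 0 in spermatogonia-like and 3 in sperm-like cells, and members lower 0 in Leydig-like and 1 in early spermatocyte-like cells. At resolution 0.8, members higher were 0 in spermatogonia-like cells, 2 in the early spermatocyte-like class, 3 in late-stage round spermatid-like and 3 in sperm-like cells, and members lower 0 in Leydig-like and 1 in early spermatocyte-like cells. Without doublets, 0 were higher in spermatogonia-like and 2 lower in early spermatocyte-like cells. Stricter minimums test fewer genes and a larger fold is harder to pass by construction. The cause of the other shifts was not tested.

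No paired analysis was possible because each genotype had 1 library. With 35 WT cells in the early spermatocyte-like class and 26 in the macrophage-like class, depth limits low levels there.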

Other observations

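The genes that lengthen and release the chain, read from the same list, held other members with high levels in sperm-like cells. Eef1g, a subunit of the complex that recharges the elongation factor eEF1A, was at 394 CPM in WT spermatogonia-like cells, 881 in WT sperm-like cells and 592 in KO sperm-like cells. Eef1d, of the same complex, was at 506 and 360 CPM in WT and KO sperm-like cells. Paip2, a repressor that binds the poly(A)-binding protein, was at 1079 and 984 CPM there. Among the poly(A)-binding genes, Pabpc6 was at 1517 CPM in the WT late spermatocyte-like class and 55.5 in mid-stage round spermatid-like cells, and Pabpc1 at 4531 and 2583. Pabpc6 was also among the markers that named the late spermatocyte-like class, so its high level there is partly fixed by the naming. These genes were chosen after their values were seen.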
